A study of Canis lupus familiaris with 8 samples.

Results

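The genes described here encode proteins of the desmosome and of its neighbours at the intercalated disc, the specialised border where heart muscle cells meet end to end: DSP, DSG2, DSC2, PKP2, JUP, GJA1 and CDH2. Members were taken by symbol, as every probe set to which the platform annotation gives a single symbol among these 7, and the set of genes was selected on earlier results of the same arrays, with the difference between HHcy and control dogs in view. Such a probe set was found for 5 of the 7: DSP, DSC2, JUP, GJA1 and CDH2. They had 9 probe sets, out of 10549 with a single symbol for 6540 genes. DSG2 and PKP2 were not analysed here. Differences between the groups are therefore given as a description, with no test of the members as a set.

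At the intercalated disc, desmosomes tie the intermediate filaments of neighbouring heart muscle cells together. Cadherins such as desmocollin and desmoglein span the gap, plakoglobin and plakophilin bind their tails, and desmoplakin links these to desmin filaments. N-cadherin forms the adherens junctions that anchor the contractile apparatus, and gap junction channels of connexins let current pass from cell to cell. Inherited defects of desmosomal proteins are known in humans as a cause of arrhythmogenic cardiomyopathy.

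Cardiac RNA of 8 male dogs weighing 23 to 27 kg was measured on Affymetrix canine arrays, 1 array per dog. The HHcy group was 4 dogs with chronic hyperhomocysteinemia, meaning excess homocysteine, an amino acid, in the blood, brought about by 2 weeks of drinking water with added methionine (arrays HHcy 5 to HHcy 8). It was set against 4 control dogs (arrays control 1 to control 4). Neither the heart chamber, the breed nor the age is given in the labels, and the series asks how chronic HHcy changes cardiac gene expression.

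Values are MAS5 probe set signals on a linear scale, and log2 values are log2(signal + 24), so folds of dim probe sets are understated. Of 14301 probe sets bright enough to be tested, 14 changed with limma and Benjamini-Hochberg adjustment at 0.05, which is 0.0979% of them, 14 higher and 0 lower in HHcy. With median scaling of the arrays the split was 15 higher and 7 lower. The median log2 fold change over all tested probe sets was 0.15, and it was 0.011 with quantile scaling and -0.18 with median scaling. Precision is limited by the small number of arrays, 4 in each group.

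One array stood apart. On HHcy 6 the median of 10 cardiomyocyte markers, contractile and calcium-handling genes of heart muscle, lay at -4.77 log2 units from the control mean, whereas it lay between -0.16 and 0.061 on HHcy 5, 7 and 8 and between -0.30 and 0.39 on the controls. Smooth muscle markers were at 3.79 on HHcy 6. The signal ratio of the 3' to the 5' control probe sets of a gene rises when RNA is broken. For actin it was 599.6 on HHcy 6 and 15.3 on HHcy 5. It was 1.69 to 2.67 on HHcy 7 and HHcy 8 and 0.378 to 2.49 on the controls. For GAPDH the order of the 2 highest was the other way, 10.5 on HHcy 6 and 17.2 on HHcy 5. The GAPDH ratio was 3.56 to 5.14 on HHcy 7 and HHcy 8 and 1.46 to 3.76 on the controls. Values without HHcy 6 are given beside those of each member and of DES, VIM, PPL, NEBL and NRAP.

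DSP, the desmoplakin that links desmosomes to desmin filaments, had a lower signal in HHcy dogs on both of its probe sets, and on each of them every HHcy array lay under every control array, as was so for 3.89% of all tested probe sets. On the brighter probe set (1593889_at) the signal was 3319, 685, 3114 and 3661 on HHcy 5, 6, 7 and 8, and 4857, 5786, 4248 and 5338 on control 1, 2, 3 and 4. On the dimmer one (1593890_at) it was 1680, 185, 1946 and 2195 on the HHcy arrays in the same order, and 3146, 5958, 2522 and 3222 on the controls. HHcy 6 was by far the lowest array on both, while HHcy 5, 7 and 8 lay close together and under the lowest control, control 3.

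The brighter DSP probe set averaged 2695 ± 1359 in HHcy dogs and 5058 ± 660 in control dogs (SD, n = 4 each), a log2 fold change of -1.14 ± 0.46 (SE), or 2.21-fold lower in HHcy. The dimmer probe set averaged 1501 ± 902 in HHcy dogs and 3712 ± 1530 in control dogs (SD, n = 4 each), a log2 fold change of -1.66 ± 0.65 (SE), or 3.17-fold lower in HHcy. Among all 14301 tested probe sets 2.98% had a lower fold change than the brighter DSP probe set, and 0.762% a lower one than the dimmer. Since the genes were selected with this contrast in view, nothing is read from these ranks. HHcy 6 held much of the DSP difference between the groups. Without HHcy 6 the log2 fold changes were -0.58 ± 0.19 and -0.86 ± 0.27 (SE).

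On HHcy 5, 7 and 8 the brighter DSP probe set lay between -0.69 and -0.45 log2 units from the control mean, and the dimmer between -1.05 and -0.67. The cardiomyocyte marker median of these arrays was within the range of the controls, but single markers differed. MYL3 was at 6933 on HHcy 5 and 10261 on HHcy 7, under every control, whereas MYH7 was among the controls on both. With all arrays the 10 markers were all lower by sign in HHcy, with a median log2 fold change of -1.22. On HHcy 6 the brighter probe set lay at -2.83 and the dimmer at -4.08, where the median of the cardiomyocyte markers was -4.77. Those markers differed widely on that array: MYH7 was at 6889 (controls from 24557) and MYL3 at 27.4 (controls from 13604). In RNA from whole tissue, fewer cells of a type and less RNA per cell cannot be told apart. The part of cell mixture in the DSP values was not tested.

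**Figure D1:**
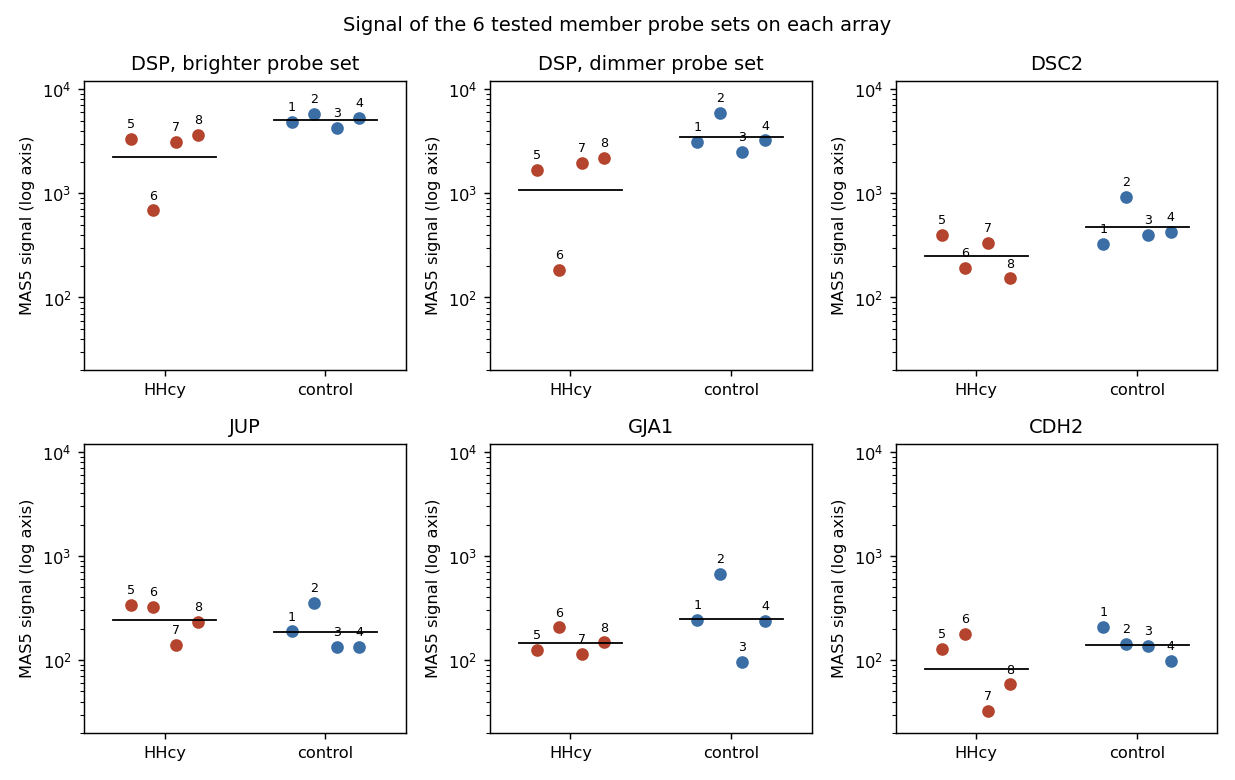
MAS5 signal (log axis) of the 6 tested member probe sets on each array, HHcy in red and control in blue, with the dog's number beside each point and black lines at the geometric mean of each group. Both DSP probe sets have every HHcy array under every control array, and DSC2, JUP, GJA1 and CDH2 overlap between the groups.

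The ratio of the brighter to the dimmer DSP probe set also differed between arrays. It was 1.98, 3.71, 1.60 and 1.67 on HHcy 5, 6, 7 and 8, and 1.54, 0.971, 1.68 and 1.66 on control 1, 2, 3 and 4. The highest ratios stood on HHcy 6 and HHcy 5, the arrays with the highest 3'/5' control ratios, and the lowest stood on control 2, the array with the lowest. Averaged over actin and GAPDH, the log2 3'/5' ratio was 4.02, 6.31, 1.89 and 1.29 on the HHcy arrays, and 1.43, -0.43, 1.51 and 1.09 on the controls. With this ratio as a covariate the log2 fold change was -0.16 ± 0.37 for the brighter DSP probe set and -0.097 ± 0.41 for the dimmer (SE). In that fit it was -0.65 ± 0.49 for DSC2, -0.58 ± 0.60 for GJA1, -1.33 ± 0.48 for CDH2 and 0.20 ± 0.48 for JUP (SE). Leaving out both HHcy 5 and HHcy 6 leaves HHcy arrays at 1.89 and 1.29 on the 3'/5' measure. The DSP log2 fold changes were then -0.57 ± 0.23 and -0.76 ± 0.32 (SE). Whether RNA quality set the DSP difference was not tested.

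**Figure D2:**
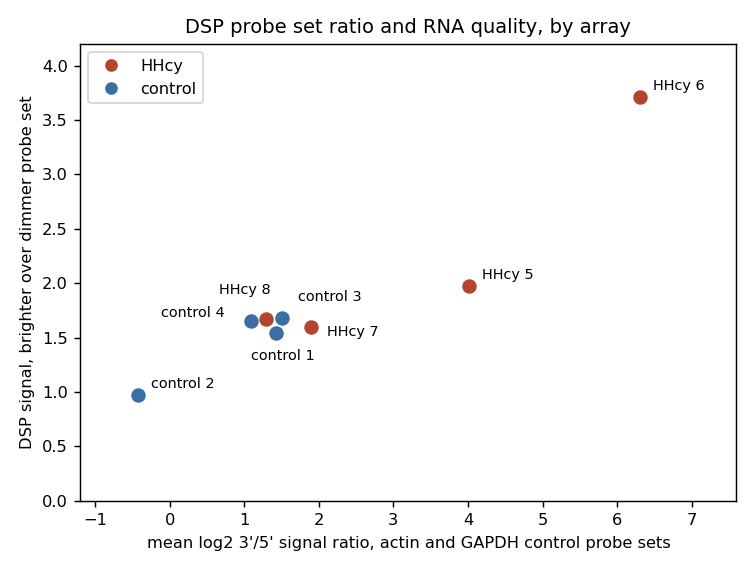
Signal of the brighter over the dimmer DSP probe set (vertical axis, linear) against the mean log2 3'/5' signal ratio of the actin and GAPDH control probe sets (horizontal axis), 1 point per array, HHcy in red and control in blue. HHcy 6 stands at the upper right with a DSP ratio of 3.71, control 2 at the lower left with 0.971, and the arrays other than these and HHcy 5 lie between 1.54 and 1.68.

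DSC2, a desmosomal cadherin, had a signal of 398, 191, 337 and 153 on HHcy 5, 6, 7 and 8, and of 329, 916, 402 and 426 on control 1, 2, 3 and 4. The groups overlapped: HHcy 6 and HHcy 8 lay under all controls, and HHcy 5 and HHcy 7 lay above control 1. DSC2 averaged 269.8 ± 117 in HHcy dogs and 518 ± 269 in control dogs (SD, n = 4 each), with a log2 fold change of -0.86 ± 0.38 (SE). Its lowest array was HHcy 8, where cardiomyocyte markers were at -0.0077 log2 units from the control mean. Control 2 raised the control mean, and without that array the log2 fold change was -0.56 ± 0.35 (SE).

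JUP, the plakoglobin found in both desmosomes and adherens junctions, was the 1 member whose tested probe set was not lower in HHcy. On that probe set (1586522_at) the signal was 338, 327, 141 and 234 on HHcy 5, 6, 7 and 8, and 189, 352, 134 and 134 on control 1, 2, 3 and 4. The groups overlapped widely, and the log2 fold change was 0.36 ± 0.37 (SE). It was -0.034 ± 0.44 (SE) without HHcy 5 and HHcy 6.

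The other 3 JUP probe sets, which share 1 source sequence record, were too dim to be tested. On 1582892_at the signal was 11.9, 37.5, 24.6 and 97.8 on HHcy 5, 6, 7 and 8, and 103, 69.0, 94.7 and 89.2 on control 1, 2, 3 and 4. HHcy 8 lay among the controls there and the other HHcy arrays lay below them. Probe sets 1582893_at and 1582826_at had all 8 signals under the added constant of 24, between 3.11 and 20.5 and between 3.70 and 12.7, and no direction is read from them. With no filter on dim probe sets, the log2 fold change of 1582892_at was -0.90 ± 0.46 (SE), of opposite sign to that of the tested JUP probe set.

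CDH2, the N-cadherin of adherens junctions, had a signal of 129, 180, 32.5 and 58.4 on HHcy 5, 6, 7 and 8, and of 207, 142, 137 and 98.6 on control 1, 2, 3 and 4. HHcy 7 and HHcy 8 lay under all controls, and HHcy 5 and HHcy 6 lay among them. CDH2 averaged 99.97 ± 67.1 in HHcy dogs and 146 ± 44.8 in control dogs (SD, n = 4 each), with a log2 fold change of -0.60 ± 0.44 (SE). The arrays that were low for CDH2 were those with the lowest 3'/5' ratios in the HHcy group, and HHcy 6, lowest for DSP, was the highest HHcy array for CDH2. Without HHcy 7 the log2 fold change was -0.28 ± 0.41 (SE), and without HHcy 5 and HHcy 6 it was -1.28 ± 0.44 (SE).

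GJA1, the main connexin of working ventricular muscle, had a signal of 125, 206, 116 and 148 on HHcy 5, 6, 7 and 8, and of 245, 674, 96.6 and 240 on control 1, 2, 3 and 4. The 4 HHcy arrays lay within the range of the controls, above control 3 and below the other 3 controls. GJA1 averaged 149 ± 40.7 in HHcy dogs and 314 ± 250 in control dogs (SD, n = 4 each), with a log2 fold change of -0.72 ± 0.46 (SE). Controls varied more than HHcy dogs: the SD of the log2 values was 0.32 in HHcy and 1.04 in controls. The fold change therefore turned on single controls, being -0.27 ± 0.38 without control 2 and -1.12 ± 0.41 without control 3 (SE).

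On HHcy 6 GJA1 lay at -0.27 log2 units from the control mean, CDH2 at 0.30 and JUP at 0.73. The brighter DSP probe set and DSC2 were at -2.83 and -1.22 on that array. The added 24 limits how far a dim gene can fall: a signal of 0 would put CDH2 at -2.79, JUP at -3.14, GJA1 at -3.54 and DSC2 at -4.39, so these deviations are not set against that of the much brighter cardiomyocyte markers. Without HHcy 6 the log2 fold changes were -0.74 ± 0.39 for DSC2, -0.86 ± 0.48 for GJA1, -0.89 ± 0.44 for CDH2 and 0.24 ± 0.39 for JUP (SE).

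**Figure D3:**
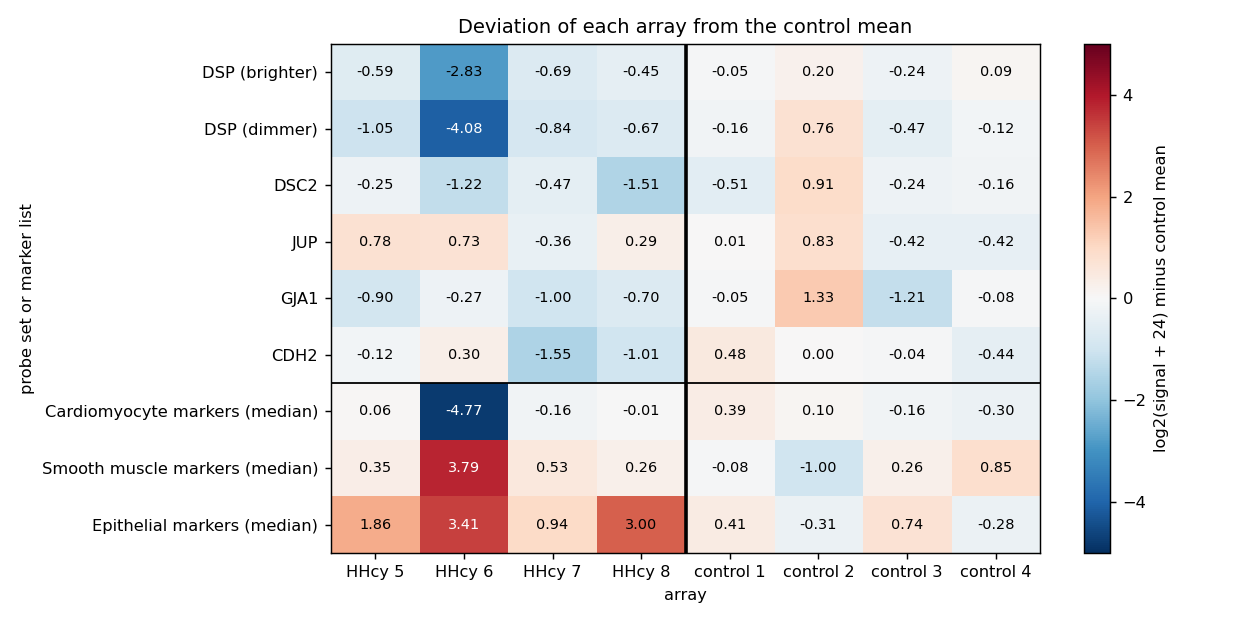
Log2(signal + 24) minus the control mean for the 6 tested member probe sets (upper rows) and the median of 3 marker lists (lower rows) on each array, HHcy arrays on the left and controls on the right of the vertical line. DSP is negative on all 4 HHcy arrays, and cardiomyocyte markers are at -4.77 on HHcy 6. GJA1 is at -0.27 and CDH2 at 0.30 there, but the added 24 keeps these dim genes from falling under -3.54 and -2.79.

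Control 2 was the highest control for both DSP probe sets, DSC2, JUP and GJA1, with deviations from the control mean between 0.20 and 1.33 log2 units, and CDH2 was at 0.0016 there. That dog's array had the lowest 3'/5' ratio of all 8. Without both control 2 and HHcy 6, the log2 fold changes were -0.51 and -0.60 for DSP, -0.44 for DSC2, -0.42 for GJA1, -0.89 for CDH2 and 0.51 for JUP.

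Taking the brightest tested probe set of each gene, the median log2 fold change of the 5 members was -0.72, 4 lower and 1 higher by sign, where the median over all tested probe sets was 0.15. In the limma fit over all 14301 probe sets, 0 of the 6 member probe sets passed, with adjusted p from 0.226 for the dimmer DSP probe set to 0.616 for JUP. At an unadjusted p under 0.05, 3 of the 6 were lower (both DSP probe sets and DSC2), where 5.94% of all tested probe sets were, and 0 were higher, where 11.9% were. The HHcy arrays lay wholly under the controls for 2 of the 6, compared with 3.89% of all tested probe sets, and wholly over them for 0, compared with 7.49%. Since the genes were selected on this contrast, nothing is read from these counts. Under all 19 other settings tried, 0 members passed.

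**Figure D4:**
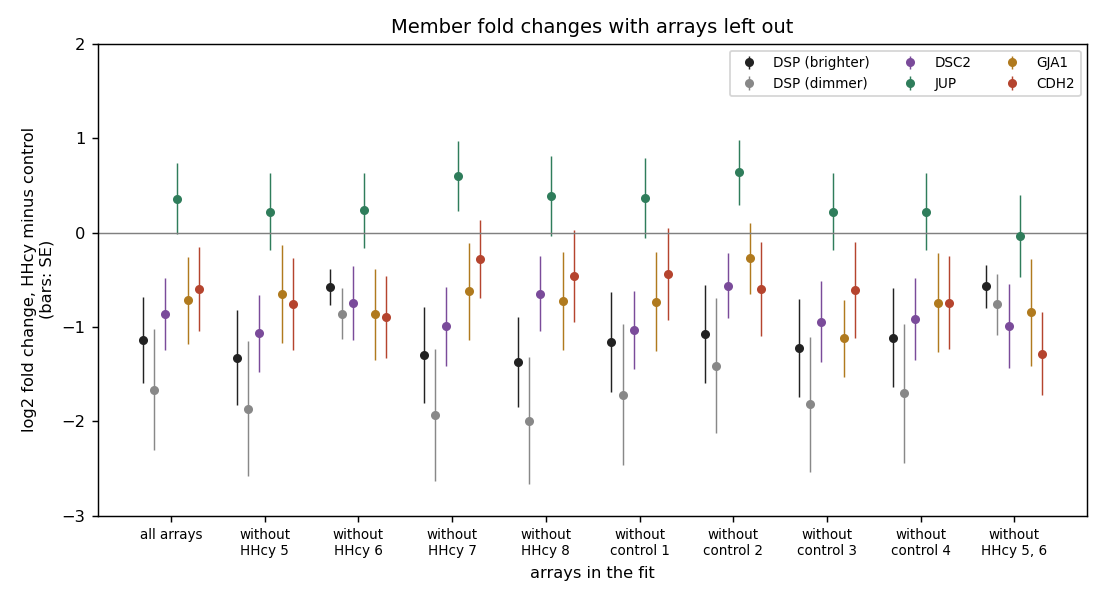
Log2 fold change, HHcy minus control, of the 6 tested member probe sets with all arrays, with each array left out, and without HHcy 5 and HHcy 6, with bars for the SE. Both DSP probe sets move nearer to 0 without HHcy 6 (-0.58 and -0.86), GJA1 without control 2 (-0.27) and CDH2 without HHcy 7 (-0.28).

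A wider intercalated disc list held 59 other genes of cell junctions and their partners, not all of them particular to the disc. Of these, 26 had a probe set with that symbol alone and 20 were bright enough to be tested. By the brightest tested probe set of each gene their median log2 fold change was -0.0035, with 10 higher and 10 lower by sign, and limma called 0. With the median over the probe sets of each gene it was -0.031. Probe sets of 1 gene could differ. SPTBN1 was at 0.25 on its brightest, and its dimmer tested ones were at 0.54, -0.28, -1.17 and -1.68. ANK3 was at -0.52 on its brightest and at -0.77, -1.07 and -0.11 on others, and CXADR at -0.75 and -0.96. At an unadjusted limma p under 0.05, by the brightest probe set, 1 of the 20 was higher and 2 were lower. Over all tested probe sets 11.9% were higher and 5.94% lower at that limit. The HHcy arrays lay wholly over the controls for 1 of the 20 and wholly under them for 1. These shares were 7.49% and 3.89% over all tested probe sets. Among 5 partners of the desmosome, DES, the desmin to which desmoplakin attaches, was at -1.52 ± 0.86 on the log2 scale of fold changes (SE, limma adjusted p 0.370). DES was at 1648, 99.6, 3987 and 3321 on HHcy 5, 6, 7 and 8, and at 4016, 4370, 3657 and 2840 on control 1, 2, 3 and 4, so HHcy 6 and HHcy 5 were low and the groups overlapped. Without HHcy 6 the log2 fold change of DES was -0.39 ± 0.29 (SE). VIM, the intermediate filament protein of fibroblasts and vessel cells, had 0.58 ± 0.42, was highest on HHcy 6 and was at 0.13 ± 0.27 without that array, and PKP4, a plakophilin-related protein of cell junctions, had -0.027 ± 0.22 (SE).

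PPL, the periplakin related to desmoplakin and known mainly from epithelia, had the highest fold change of the list, 2.45 ± 0.70 on the log2 scale (SE, limma adjusted p 0.152). Its signal was 407, 2753, 333 and 517 on HHcy 5, 6, 7 and 8, and 126, 12.3, 204 and 184 on control 1, 2, 3 and 4, so all HHcy arrays lay above all controls. The same was so for 7.49% of all tested probe sets. Without HHcy 6 its log2 fold change was 1.78 ± 0.55 (SE). Of 11 epithelial and mesothelial markers 4 had a probe set with that symbol alone and 3 were tested, with 0 passing. Their limma adjusted p was 0.122 for KRT8, 0.121 for KRT18 and 0.301 for EPCAM. KRT8 and KRT18, keratins of simple epithelia, had every HHcy array above every control, and EPCAM, an epithelial adhesion protein, overlapped between the groups, at 22.8 on HHcy 7 and up to 93.8 on the controls. The summed signal of the 3 was 224 to 1586 in HHcy and 54 to 254 in controls. CDH1, the cadherin that defines epithelia, was too dim to be tested, and its brighter probe set averaged 73.8 in HHcy and 72.5 in controls. Desmosomal genes are also used by epithelial cells, and the part of such cells in the member values was not tested.

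The epidermal desmogleins DSG1 and DSG3, described after their values were seen, were also too dim to be tested. DSG1 had a signal of 134, 85.1, 98.0 and 72.7 on HHcy 5, 6, 7 and 8, and of 16.3, 46.8, 32.6 and 4.99 on control 1, 2, 3 and 4. All 4 HHcy arrays lay above all controls, and 2 control arrays were under the added constant of 24. Among the tested probe sets 7.49% had every HHcy array above every control. With no filter on dim probe sets the log2 fold change of DSG1 was 1.36 ± 0.43 (SE, limma adjusted p 0.213). DSG3 had 4.51, 81.5, 52.7 and 6.27 on the HHcy arrays in the same order, and 6.74, 3.37, 2.63 and 34.7 on the controls, so its groups overlapped and 5 arrays were under 24.

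Among 8 genes placed with adherens junctions, NEBL and NRAP, which sit where thin filaments meet the cell border or the Z-disc, had the lowest fold changes, -1.48 ± 0.60 and -1.32 ± 0.89 (SE). Both were lowest on HHcy 6, at 239 for NEBL and 160 for NRAP, where the other arrays had at least 1629 and 3128. Without HHcy 6 the log2 fold changes were -0.75 ± 0.28 for NEBL and -0.16 ± 0.29 for NRAP (SE). CTNNB1, the beta-catenin that binds N-cadherin, had -0.18 ± 0.22, and CTNNA1, an alpha-catenin, 0.18 ± 0.24 (SE). CTNNA2, another alpha-catenin, had 0.75 ± 0.62 (SE). Vinculin (VCL) was too dim on its 3 probe sets to be tested.

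Among 7 genes placed with gap junctions, TJP1, a scaffold protein that binds connexins, had a signal of 3885, 3421, 4125 and 3959 on HHcy 5, 6, 7 and 8, and of 6336, 6972, 5539 and 5572 on control 1, 2, 3 and 4. The groups did not overlap, and HHcy 6 stood near the other HHcy arrays. All HHcy arrays lay under all controls for 3.89% of all tested probe sets. The log2 fold change of TJP1 was -0.66 ± 0.21 (SE, limma adjusted p 0.171). It was named after its values were seen. GJA5, a connexin of atrial muscle and the conduction system, was at 0.17 ± 0.30 (SE), and its groups overlapped.

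**Figure D5:**
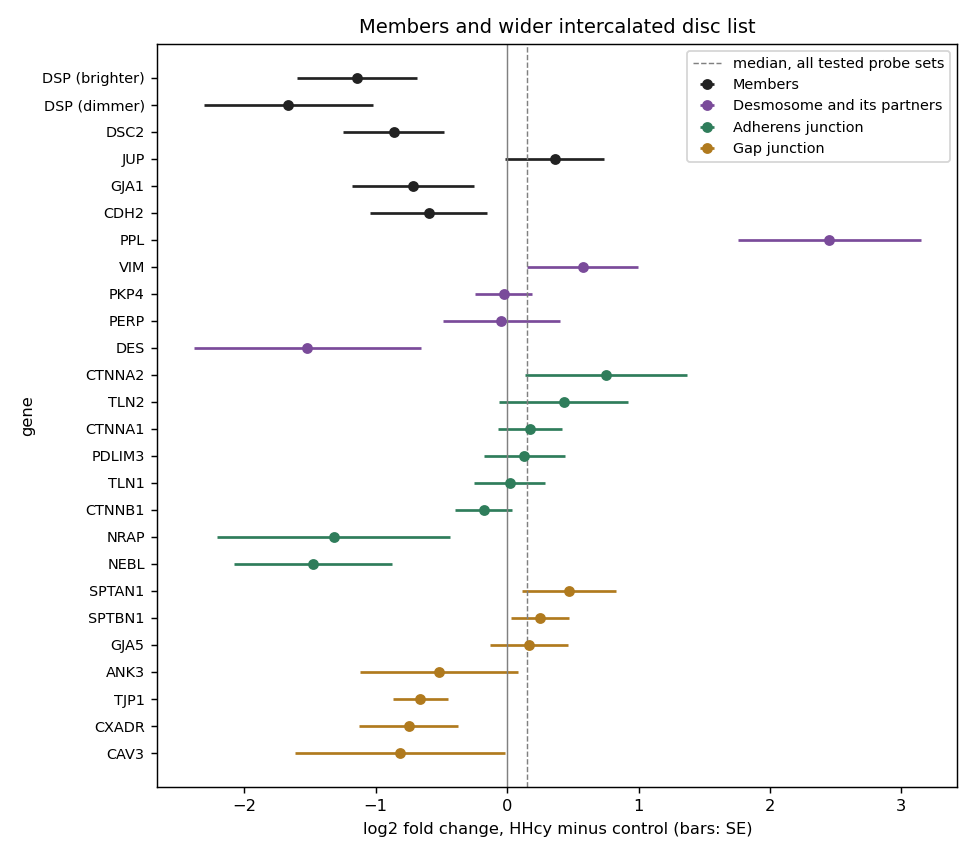
Log2 fold change, HHcy minus control, with its SE for the member probe sets (black) and the 20 tested genes of the wider intercalated disc list, coloured by class. DSP, DSC2, GJA1 and CDH2 lie left of 0 and JUP right of it, and the list runs from -1.52 for DES to 2.45 for PPL (dashed line, the median of all tested probe sets at 0.15).

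Summed marker signals of the cell types differed in how far the groups overlapped, and 0 markers of any list passed the limma test. The sums of 5 atrial muscle markers did not overlap, at 6153 to 11252 in HHcy and 12089 to 23704 in controls. Nor did those of 9 macrophage markers, at 8359 to 15479 in HHcy and 4770 to 6970 in controls. Singly, 2 of the 5 atrial markers lay wholly lower in HHcy and 5 of the 9 macrophage markers wholly higher. Over all tested probe sets these shares were 3.89% and 7.49%. A bright marker weighs most in a sum: PAM gave 5232 of the atrial 6153 on HHcy 6. For 10 cardiomyocyte markers the sums overlapped, at 15942 to 234204 in HHcy, at least 210777 without HHcy 6, and 191749 to 303053 in controls. Fibroblast markers (5 tested) summed to 19097 to 51894 in HHcy and 12934 to 19269 in controls, which overlap at the edge, and COL3A1 among them had a log2 fold change of -0.48. Smooth muscle markers (4 tested) summed to 6582 to 60360 in HHcy, to 6582 to 9828 without HHcy 6, and to 5984 to 9806 in controls, and DES among them had a log2 fold change of -1.52. No marker was listed at 0 on any array, and the part of these cell types in the member values was not tested.

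The genes with the most similar pattern were sought for the 3 members that varied most over the 8 arrays, by the root mean square difference of mean-centred log2 values among 5014 other genes. For DSP the nearest were NDUFV1, a subunit of respiratory complex I, at 0.119 log2 units, OSGIN2 at 0.171 and TIMM17A, a part of the mitochondrial import machinery, at 0.174, where the median gene stood at 1.07. NDUFV1 had a signal of 1697, 417, 1875 and 1978 on HHcy 5, 6, 7 and 8. On control 1, 2, 3 and 4 it was 2528, 3295, 2252 and 2523. Its groups did not overlap, but it was picked for its likeness to DSP. For GJA1 the nearest were the integrin ITGB1 at 0.242, MRPL11 at 0.259 and the growth hormone receptor GHR at 0.267, with a median of 0.940. For DSC2 they were PLCL1 at 0.263, MAP3K5 at 0.292 and RAB3IP at 0.338, with a median of 0.882. The points share their arrays, and the GJA1 matches follow control 2, which was the highest array for ITGB1, MRPL11 and GHR. Control 2 was the highest array for the matches of DSP and DSC2 as well.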

How the data were processed

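Total RNA of 8 dog hearts was measured on Affymetrix canine arrays, 1 per dog. Each deposited value is a linear probe set intensity. Per the submitters' processing notes the authors used MAS5 (version not given in the sources used here). All arrays share a mean signal of 500.08 to 500.10 after trimming 2% from both ends, and they were not rescaled. Detection calls were not used here.

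By the platform annotation, 10549 probe sets have 1 symbol, 138 have several and 13226 have none. RefSeq's gene table held 10046 of the single symbols' gene identifiers, and 0 symbols needed an update. Names were not checked against probe sequences.

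Samples were grouped by title. Dogs are numbered 5 to 8 in HHcy and 1 to 4 in controls, so no numbers pair them. The labels name neither batch nor date. The limma p-values set a group difference against the spread between arrays, in which dogs and handling are together. A handling difference that followed the groups could not be told apart from HHcy.

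Values were taken as log2(value + 24), 24 being the 20th percentile. After 77 control probe sets, the dimmest 40% were left out. Groups were compared over the remaining 14301 with limma 3.58.1 in R 4.3.3, using lmFit, eBayes with a trend on intensity, and adjustment after Benjamini and Hochberg. The fit was checked on simulated data with known log2 changes. It recovered 16% of changes of 1, 60% of changes of 2, and 90% of changes of 3 and of 4. Of 138 calls there, 10 were false. A member that did not pass is therefore not shown to be unchanged.

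The members, lists and settings were chosen with earlier results of these data known. Genes named were all members, the 3 highest and 3 lowest of the wider list, and the 3 genes nearest in pattern to each of 3 members. Other list genes were picked once their values were known. Where a gene has several probe sets, its brightest tested one comes first. Alternatives were other scalings, pseudocounts of 6 and 96, other filters and variance models, the 3'/5' ratio as a covariate, 1 value per gene over its probe sets, and arrays left out.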

Additional observations from a re-analysis of the deposited data

Results flagged for a closer look

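DSC2 on control 2, at a signal of 916, stood far from the other control arrays: its gap to the nearest of them was 0.835 of the group's whole range, above Dixon's limit for 4 samples. It was the only one so marked among 18 groups of 4 signals over the 9 member probe sets, and chance marks about 1 group in 20.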

How the results depend on the processing

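No paired analysis was possible because the HHcy and control dogs share no replicate numbers. The count of 14 called probe sets was 7 with quantile scaling, 22 with median scaling, 9 with the dimmest 60% left out, 76 with array weights, 5 when the 3'/5' ratio was a covariate, 5 without HHcy 5 and HHcy 6, and 3 to 31 with each array left out in turn. The members' median log2 fold change of -0.72 ran from -0.94 to -0.56 with each array left out, and over all settings from -1.04 with median scaling to -0.44 without control 2 and HHcy 6. That of the wider list, -0.0035, was -0.35 with median scaling, 0.13 without HHcy 5 and HHcy 6, and -0.046 to 0.13 with each array left out. The causes were not tested. No member passed under the settings tried. DSP, DSC2, GJA1 and CDH2 kept a negative log2 fold change in each of them (CDH2 was too dim for the stricter filter), and JUP turned to -0.034 without HHcy 5 and HHcy 6. Both DSP probe sets ran from -1.50 to -0.16 and from -2.01 to -0.097, the value nearest 0 coming with the 3'/5' covariate.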
